A study of Mus musculus with 12 samples.

Results

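The 9 genes described here encode the activin and inhibin subunits (Inhba, Inhbb, Inha), the secreted activin binders follistatin and follistatin-like 3 (Fst, Fstl3) and the activin receptors (Acvr1b, Acvr1c, Acvr2a, Acvr2b). They were chosen by name from the 41091 gene IDs of the count tables, with symbols from GENCODE M21, by a rule that uses no measured value. The list was nevertheless drawn up with earlier results of these data known. RNA was sequenced from acute hippocampal mini-slices of wild-type C57BL/6 mice aged 2-3 months, with the dentate gyrus trimmed away. LTP slices received 50 uM forskolin, which activates adenylyl cyclase, first by itself and then with 30 mM KCl and 10 mM calcium, for 10 min in all (chemical LTP). Control slices received 0.2% DMSO for the same time. The tissue was frozen 1 hr or 3 hr afterwards, which gave 4 groups of 3 libraries (LTP and control at each time), and every animal gave LTP and control slices at its time point. The study kept samples in which Arc and the short Homer1 isoform had risen by qPCR, so the LTP groups hold slices that had responded. The p-values rest on the spread between the libraries of a group, which come from different animals treated in this way. LTP and control slices of an animal were treated as independent in the main tests.

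Activins are dimers of inhibin beta subunits. Inhba encodes the beta A subunit and Inhbb the beta B subunit, and a beta subunit joined to the alpha subunit, the product of Inha, makes an inhibin, which opposes activin. Activin binds a type II receptor (ACVR2A or ACVR2B), which brings in and activates a type I receptor (ALK4, the product of Acvr1b, or ALK7, the product of Acvr1c), and the type I receptor phosphorylates SMAD2 and SMAD3, which act in the nucleus. Follistatin and follistatin-like 3 bind activin outside the receptor and block it. In the hippocampus Inhba is known as a gene induced by neuronal activity, and activin has been linked to dendritic spines and to lasting synaptic potentiation.

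Library totals ran from 37118382 to 50815001 counts, and the 9 genes had between 26 and 6236 counts in a library, above the floor of 3 counts (0.0584 to 0.0792 CPM, counts scaled to library size with TMM factors) in all 12 libraries. Each of the 9 passed the filter on low counts in each comparison. The study had set aside 1 hr control replicate 2 as an outlier of its clustering. On the first principal component, with 55.5% of the variance, it lay at -6.09, where the remaining libraries of that time spanned -25.9 to -17.8 and those of the later time 9.52 to 30.4. It entered no test unless named. The activity-induced genes Fos, Npas4 and Egr1 were called higher after LTP at both time points, as were Arc and Homer1, for which the samples had been selected. Of 44 markers of 13 cell types none was at 0 and none was called between LTP and control at either time. At 1 hr 10 of 44 markers were at an unadjusted p under 0.05 in edgeR, against 1190 of all 17736 genes tested, a smaller share. At 3 hr it was 8 of 43 markers tested, against 3540 of 17508 genes. At 1 hr the summed level of 4 endothelial markers was 84.2 to 92.3 CPM in the controls and 72.1 to 76.0 CPM with LTP. This was the only type of the 13 without overlap at 1 hr. At 3 hr the only such type was that of 3 ependyma and choroid plexus markers, with 31.2 to 34.2 CPM in the controls and 34.4 to 38.0 CPM with LTP. The summed level of 4 fibroblast and meninges markers overlapped at both times. At 1 hr it was 17.5 to 32.0 CPM in the controls and 14.1 to 20.1 CPM with LTP (median log2 fold change -0.51). At 3 hr it was 19.5 to 28.4 CPM in the controls and 12.6 to 22.2 CPM with LTP (-0.58). The part of these in the LTP differences was not tested. In the controls, however, 3 of 44 markers were called higher and 13 lower at 3 hr than at 1 hr, against 16.1% and 16.8% of all genes. The dentate granule cell markers Prox1, C1ql2 and Dsp were still measured, with a summed level of 112 to 213 CPM.

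Inhba, the beta A subunit gene, was the member called higher after LTP, at 3 hr. It lies at chr13:16011851-16031621 on the plus strand of GRCm38. The antisense gene Gm48444 and the pseudogene B230303A05Rik cross it on the opposite strand and share 0 of its 6390 exonic bases. Inhbb lies at chr1:119415465-119422248 on the minus strand. The 250 bases before the start sites of these genes are shown because they are the promoters of the beta subunit genes, of which Inhba was called after LTP and Inhbb was not. They come from RefSeq on GRCm38.p6 (chr13:16011601-16011850, plus strand, and chr1:119422249-119422498, minus strand), written 5′ to 3′ with capitals kept for any motif match.
Inhba: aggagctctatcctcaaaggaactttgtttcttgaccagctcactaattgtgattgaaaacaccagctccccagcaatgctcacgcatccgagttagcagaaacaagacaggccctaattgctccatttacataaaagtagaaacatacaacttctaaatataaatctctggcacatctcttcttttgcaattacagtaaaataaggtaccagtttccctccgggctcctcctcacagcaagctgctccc
Inhbb: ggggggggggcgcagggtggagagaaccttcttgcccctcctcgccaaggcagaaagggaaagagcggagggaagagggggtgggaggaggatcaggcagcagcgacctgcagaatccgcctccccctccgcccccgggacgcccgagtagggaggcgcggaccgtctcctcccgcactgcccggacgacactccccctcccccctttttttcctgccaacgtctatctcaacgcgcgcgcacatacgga
The windows of 300 bases, 250 before and 50 from the start site on, were searched on both strands for 4 motifs. The cAMP response element was spelled TGACGTCA. Its core, contained in the whole element, was searched for in its own right as TGACG. The AP-1 site, at which Fos and Jun proteins bind, was spelled TGANTCA. The CAGA box, to which SMAD3 and SMAD4 bind, was spelled CAGAC. In this order they were held by 1.79%, 20.8%, 7.81% and 49.6% of all 32851 windows. Neither the Inhba nor the Inhbb window held any of them, so no letter is in capitals. GC content of the printed bases was 43.2% for Inhba and 68.0% for Inhbb, against a median of 52.4% over all windows. Windows were found for 8 of the 9 genes (9 windows). None held a cAMP response element, its core or an AP-1 site, and the CAGA box was found in those of Inha, Fstl3, Acvr2a and Acvr2b.

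At 1 hr, Inhba stood at 5.17, 5.30 and 4.53 CPM in control replicates 1, 2 and 3, and at 7.87, 8.15 and 5.24 CPM in the LTP replicates. LTP replicates 1 and 2 were above every control, whereas LTP replicate 3 was above the 2 fitted controls and just below the library set aside. The LTP to control ratio within an animal was 1.52, 1.54 and 1.16. The log2 fold change of 0.56 (SE 0.19) was not called (adjusted p = 0.445, edgeR quasi-likelihood test over 17736 genes). It was called without a filter on low counts (0.56, adjusted p = 0.0466) and without LTP replicate 3 (0.74, adjusted p = 0.0180), and over its 14 alternatives the adjusted p ran from 0.0180 to 0.970.

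At 3 hr, Inhba stood at 12.7, 13.1 and 12.8 CPM in the controls and at 23.5, 26.7 and 28.7 CPM in the LTP libraries. The groups did not overlap, and the lowest LTP library was well above the highest control. Inhba rose 2.06-fold with LTP (log2 1.04, SE 0.0874, adjusted p = 0.00102, edgeR quasi-likelihood test), and the ratio within an animal was 1.85, 2.04 and 2.25. Among the 888 genes called higher, 5.07% of those tested, it ranked 14 by p and 141 by fold change. The LTP effect was larger at 3 hr than at 1 hr by 0.49 (SE 0.21) on the log2 scale, a difference called the interaction here, which was not called (adjusted p = 0.715, edgeR), so a larger response at 3 hr was not shown. In bulk tissue a higher level per cell and a larger number of expressing cells cannot be told apart.

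**Figure D1:**
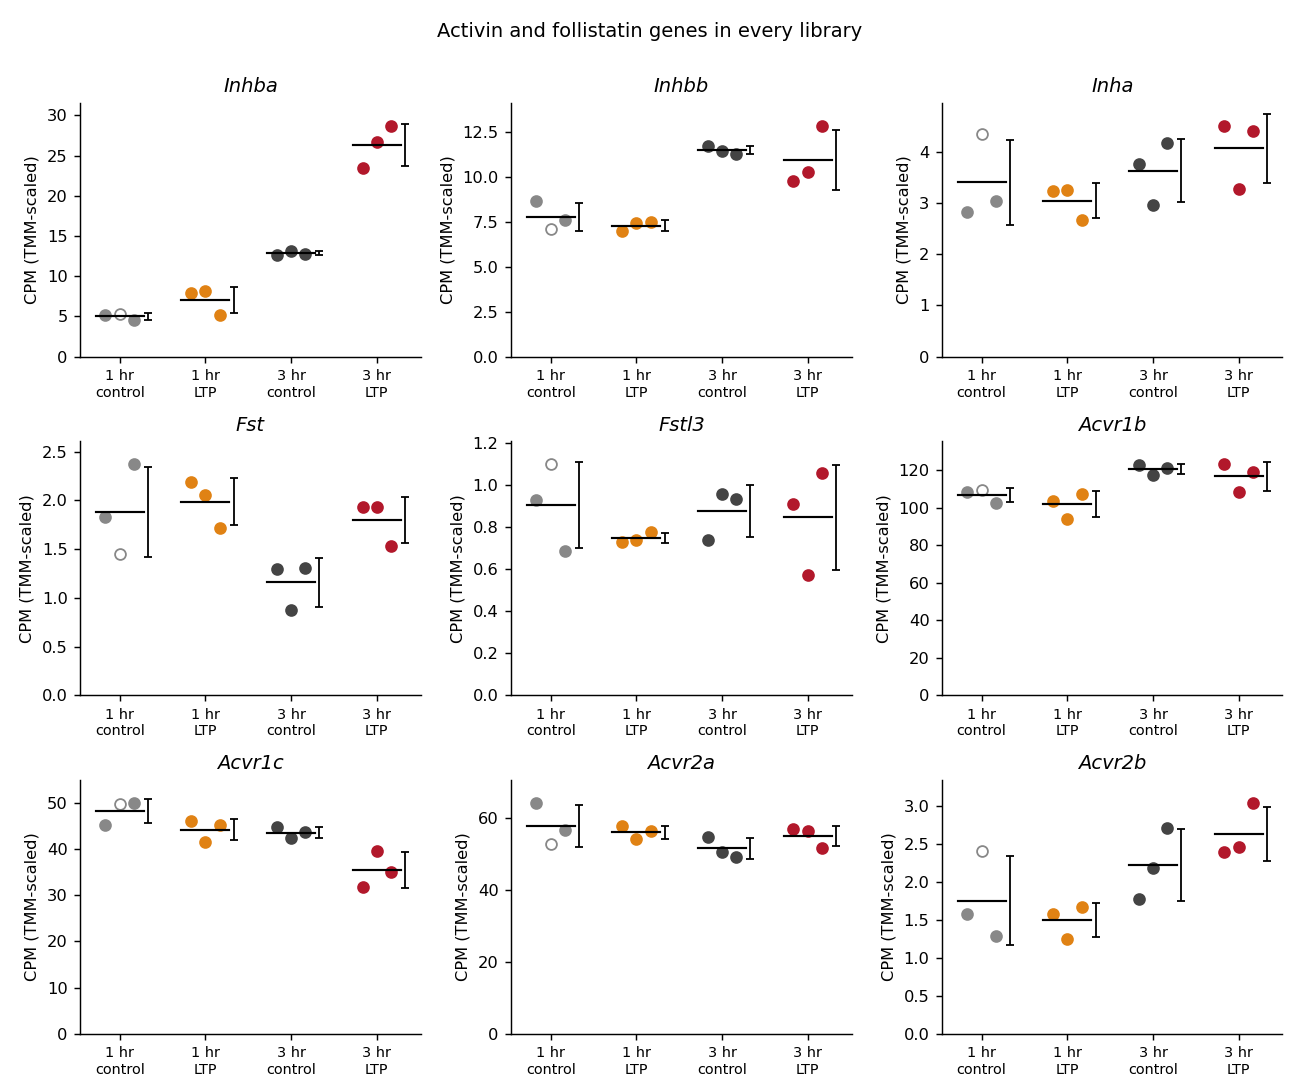
TMM-scaled CPM of each of the 9 genes (y axis, from 0, scaled per gene) in every library of the 4 groups (x axis). Points are libraries, the open point is 1 hr control replicate 2, lines are means of 3 libraries and bars are SDs. At 3 hr the Inhba libraries lie at 23.5 to 28.7 CPM with LTP and at 12.7 to 13.1 CPM in the controls.

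Inhbb, the other beta subunit gene, was not called with LTP at either time. Its 1 hr levels were 8.65, 7.10 and 7.61 CPM in the controls and 6.97, 7.46 and 7.48 CPM with LTP (log2 fold change -0.14, SE 0.13, adjusted p = 0.935). The LTP libraries were below both fitted controls, and the library set aside lay between LTP replicate 1 and the other two. At 3 hr the controls were at 11.7, 11.5 and 11.3 CPM and the LTP libraries at 9.77, 10.3 and 12.9 CPM. LTP replicates 1 and 2 were below and replicate 3 above all controls, and the log2 fold change was -0.06 (SE 0.11, adjusted p = 0.811, edgeR).

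Inha lies at chr1:75507077-75510366 on the plus strand. Its 1 hr levels were 2.82, 4.35 and 3.03 CPM in the controls and 3.23, 3.24 and 2.66 CPM with LTP, and the groups overlapped. The 3 hr controls were at 3.76, 2.96 and 4.17 CPM and the LTP libraries at 4.50, 3.28 and 4.41 CPM. These overlapped, although each animal's LTP slices were higher than its controls. The log2 fold change was 0.17 (SE 0.17), after 0.07 (SE 0.19) at 1 hr, and neither was called (adjusted p = 0.623 and 0.986, edgeR).

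Levels of different genes were compared per kilobase of exon (RPKM, from the TMM-scaled CPM), with untranslated regions included in the length. The study's text describes an expression analysis of coding reads alone, and the sources used here do not say if the counts cover only coding sequence. If they do, the shares, ratios and order between genes would differ from those given. Inhba made up 28.4%, 33.2% and 28.4% of the summed Inhba and Inhbb RPKM in the 1 hr controls, and 42.9%, 42.1% and 31.8% in the 1 hr LTP libraries. The share was 41.8%, 43.3% and 43.0% in the 3 hr controls and 61.5%, 63.4% and 59.8% with LTP. Per kilobase of exon, Inhbb was the higher of the pair in the 9 libraries of the other groups, and Inhba in the 3 libraries of the 3 hr LTP group. By CPM, with no length in it, Inhba was also above Inhbb in the 3 hr controls and in 1 hr LTP replicates 1 and 2. The ratio of Inhba to Inhbb went from 0.745 ± 0.0234 (SD, n = 3) in the 3 hr controls to 1.61 ± 0.124 with LTP. The SD of the 3 hr controls was smaller than counting error. The ratio of Inha to Inhba was 2.94 ± 0.597 in the 1 hr controls, 1.90 ± 0.258 in 1 hr LTP, 1.23 ± 0.224 in the 3 hr controls and 0.676 ± 0.150 in 3 hr LTP slices. It was lower with LTP than in the control of the same animal in all 3 animals at each time point. These ratios hold Inhba itself and add no independent result.

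**Figure D2:**
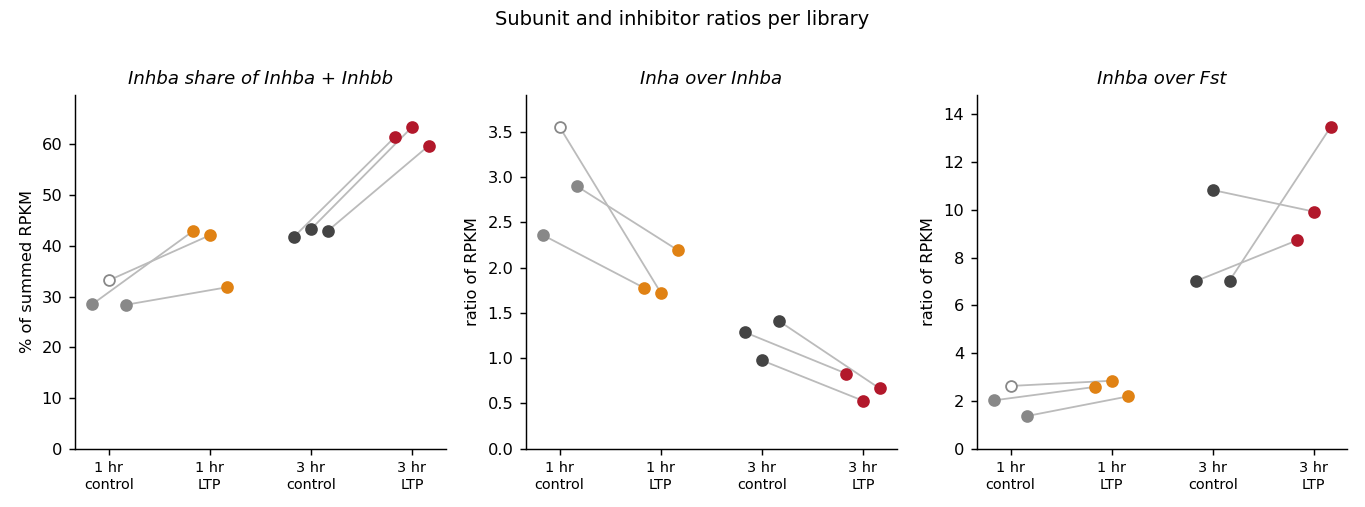
Inhba share of the summed Inhba and Inhbb RPKM in percent, and the ratios of Inha to Inhba and of Inhba to Fst RPKM (y axes, from 0), in every library of the 4 groups (x axis). Grey lines join the slices of an animal and the open point is 1 hr control replicate 2. The Inhba share is 59.8 to 63.4% in 3 hr LTP libraries and at most 43.3% elsewhere.

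Of the 2 inhibitors, Fst was higher in each 3 hr LTP library than in each 3 hr control, without passing the test. Fst (chr13:114452290-114458951, minus strand) had 1.83, 1.45 and 2.37 CPM in the 1 hr controls and 2.19, 2.06 and 1.72 CPM in 1 hr LTP, and these overlapped (log2 fold change -0.07, SE 0.23, adjusted p = 0.988, edgeR). At 3 hr it had 1.30, 0.871 and 1.30 CPM in the controls and 1.93, 1.93 and 1.53 CPM with LTP, from 40 to 88 counts. The log2 fold change was 0.65 (SE 0.20, adjusted p = 0.122, edgeR quasi-likelihood test). Without LTP replicate 3 it was 0.74 and passed (adjusted p = 0.0931), and over its 13 alternatives the adjusted p ran from 0.0931 to 0.379. For Fst the interaction was 0.73 (SE 0.30) and was not called (adjusted p = 0.686, edgeR). Inhba over Fst overlapped between 3 hr LTP (8.72, 9.92 and 13.5) and control libraries (7.01, 10.8 and 7.03).

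Fstl3 (chr10:79777272-79782630, plus strand) was measured with 26 to 53 counts a library. Its levels at 3 hr were 0.736, 0.959 and 0.934 CPM in the controls and 0.909, 0.572 and 1.06 CPM with LTP, with the groups overlapping, and its log2 fold change was -0.05 (SE 0.26) then and -0.10 (SE 0.33) at 1 hr. Of its exonic bases 47.3% overlap Prss57 on the opposite strand. No source used here says if reads were counted by strand, and reads of Fstl3 and Prss57 may not have been told apart. The opposite-strand overlaps of the other members were 7.84% for Acvr2a (with Orc4), 2.51% for Fst and 1.81% for Acvr1c, and neither Prss57 nor Orc4 was called with LTP.

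None of the 4 receptor genes was called with LTP. Acvr1b (chr15:101174067-101213684, plus strand), the type I receptor ALK4, was the most abundant of the 9 genes. It had 109, 109 and 103 CPM in the 1 hr controls, 104, 94.1 and 107 CPM in 1 hr LTP, 123, 118 and 121 CPM in the 3 hr controls and 123, 108 and 119 CPM in 3 hr LTP. The LTP and control libraries overlapped at both times (log2 fold change -0.04, SE 0.0745, and -0.03, SE 0.0649).

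Acvr1c (chr2:58267453-58357895, minus strand), the type I receptor ALK7, was lower in all 3 LTP libraries at 3 hr (31.9, 39.6 and 34.9 CPM) than in the controls (44.7, 42.3 and 43.6 CPM). The ratio within an animal was 0.713, 0.935 and 0.802. The log2 fold change of -0.28 (SE 0.0859) missed the threshold in the edgeR quasi-likelihood test (adjusted p = 0.111). It passed with the animal as a replicate block (-0.29, adjusted p = 0.0855), in DESeq2 (-0.28, adjusted p = 0.0525), without a filter on low counts (-0.30, adjusted p = 0.0840) and without LTP replicate 2 (-0.36, adjusted p = 0.0156), and over its 13 alternatives the adjusted p ran from 0.0156 to 0.327. At 1 hr the groups overlapped, at 45.2, 49.6 and 49.9 CPM in the controls and 46.0, 41.5 and 45.1 CPM with LTP (log2 fold change -0.10, SE 0.0805).

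The type II receptor genes are Acvr2a (chr2:48814109-48903269, plus strand) and Acvr2b (chr9:119402118-119434995, plus strand). Acvr2a had 55.0, 50.6 and 49.4 CPM in the 3 hr controls and 57.1, 56.4 and 51.8 CPM with LTP, and the groups overlapped although each animal's LTP slices were higher (log2 fold change 0.11, SE 0.0701, adjusted p = 0.430, edgeR). At 1 hr its log2 fold change was -0.10 (SE 0.0787). Acvr2b was low, with 47 to 139 counts a library. Its 3 hr levels of 1.77, 2.18 and 2.71 CPM in the controls and 2.39, 2.46 and 3.03 CPM with LTP overlapped, although the ratio within an animal was 1.35, 1.13 and 1.12. Its log2 fold change was 0.25 (SE 0.18), after 0.08 (SE 0.26) at 1 hr.

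Counted over the 9 genes, 0 were called at 1 hr, where 0.789% of all genes tested were called. At an unadjusted p under 0.05 in edgeR Inhba was the only member at 1 hr, against 1190 of all 17736 genes. Inhba, Fst and Acvr1c were the members under it at 3 hr, against 3540 of 17508 genes. At 1 hr 1 gene (Inhba) lay without overlap above and 1 (Inhbb) below the fitted controls, against 11.5% and 10.7% of all genes. At 3 hr 1 of 9 was called higher and 0 lower, where 5.07% and 1.53% of all genes were called, and 2 (Inhba, Fst) lay above and 1 (Acvr1c) below the controls without overlap, against 13.8% and 12.7% of all genes. In the interaction 0 of 9 were called, where 0.0592% of all genes were. Inhba and Fst had unadjusted p-values of 0.0332 and 0.0275 there, and adjusted p-values of 0.715 and 0.686 (edgeR). DESeq2 and limma-voom also called 0 of 9 at 1 hr and in the interaction.

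**Figure D3:**
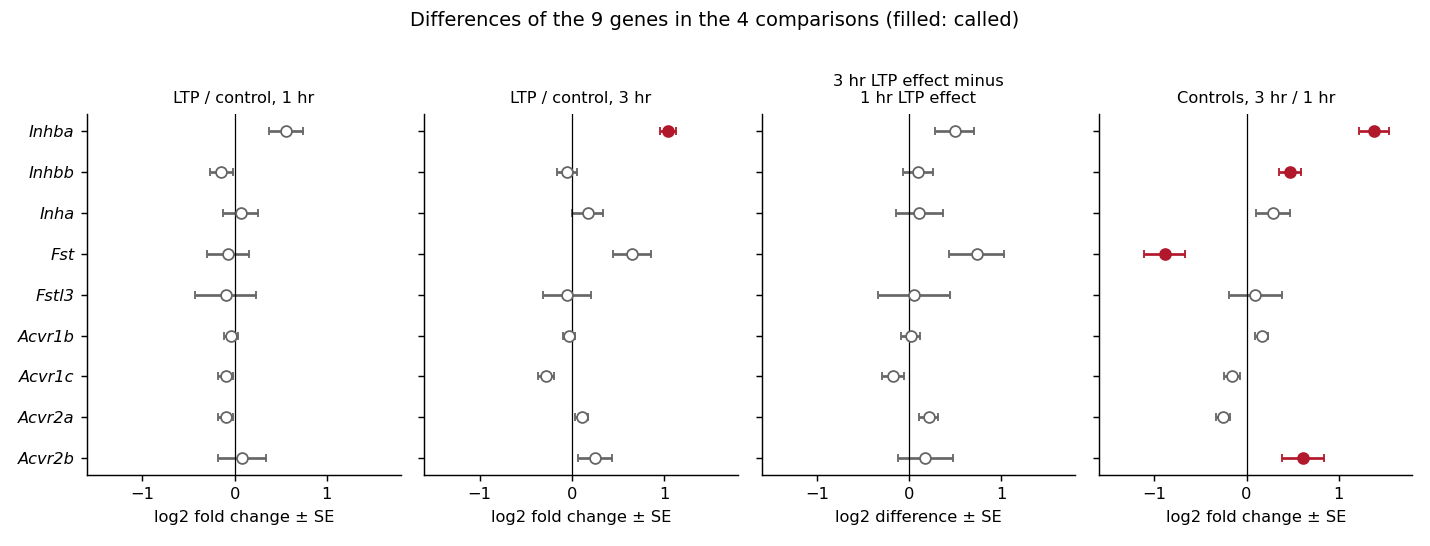
Log2 fold changes with their SE (x axis) of the 9 genes (rows) for LTP against control at 1 hr and 3 hr, for the 3 hr effect minus the 1 hr effect, and for the controls at 3 hr against 1 hr. Filled points passed the call rule (fold change over 1.2 except in the interaction, and adjusted p under 0.1). Inhba at 3 hr (1.04) is the filled point among the LTP panels, and 4 genes are filled in the panel of the controls.

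In slices that received vehicle alone, the levels of 4 members differed between 3 hr and 1 hr. Inhba was 2.60-fold higher in the 3 hr controls than in the 1 hr controls (log2 1.38, SE 0.16, adjusted p = 8.99e-05, edgeR quasi-likelihood test with 11 libraries). Inhbb was 1.39-fold higher (log2 0.47, SE 0.12, adjusted p = 0.00976). Acvr2b was 1.53-fold higher (log2 0.61, SE 0.23, adjusted p = 0.0529). Fst was lower, at 0.540 of its 1 hr control level (log2 -0.89, SE 0.22, adjusted p = 0.00870). The Inhba and Inhbb calls held in each of their 18 alternatives (highest adjusted p 0.00415 and 0.0858). The Fst call was lost without 1 hr control replicate 3 (-0.65, adjusted p = 0.137). The Acvr2b call was lost on leaving out replicate 3 of the 1 hr controls (0.51, adjusted p = 0.255) or of the 3 hr controls (0.46, adjusted p = 0.176) and with 1 hr control replicate 2 kept, which was at 2.40 CPM against 1.58 and 1.28 CPM in the fitted 1 hr controls (0.33, adjusted p = 0.301).

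Acvr2a was lower in the 3 hr controls by an amount short of the fold change minimum (log2 -0.26, SE 0.0770, adjusted p = 0.0220), and it passed when 1 hr control replicate 3 (-0.31) or 3 hr control replicate 1 (-0.28) was left out, with adjusted p-values from 0.0200 to 0.376 over its 18 alternatives. Acvr1b (0.16), Inha (0.28), Fstl3 (0.09) and Acvr1c (-0.16) were not called. Over all genes tested, 16.1% were called higher and 16.8% lower in this comparison, so 3 of 9 higher and 1 of 9 lower is set against a large background. Without overlap with the 2 fitted 1 hr controls, 4 of the 9 lay higher (Inhba, Inhbb, Acvr1b, Acvr2b) and 3 lower (Fst, Acvr1c, Acvr2a), against 29.1% and 32.1% of all genes. The library set aside lay within the range of the 3 hr controls for Acvr2b and Acvr2a. Time after treatment, the animals and any handling tied to a time point cannot be told apart here. The summed level of 4 microglia markers went from 139 to 152 CPM in the 1 hr controls to 96.7 to 109 CPM in the 3 hr controls with 3 of 4 called lower, and 3 of 4 endothelial and 3 of 4 mural cell markers were also called lower. The part of these shifts in the members' differences was not tested. The 3 hr control libraries serve both this comparison and that of LTP at 3 hr.

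The order of the levels per kilobase of exon, which rests on the exon lengths used, was led by the receptors. In the 1 hr controls Acvr1b had 24.2 ± 0.850 RPKM (SD, n = 3), Acvr2a 10.2 ± 1.03 and Acvr1c 5.20 ± 0.284, and none of these overlapped its neighbour. Inha (2.30 ± 0.561) and Inhbb (1.83 ± 0.187) overlapped each other. Inhba followed at 0.782 ± 0.0647 RPKM, and Acvr2b, Fst and Fstl3 shared the lowest range (0.370 to 0.446 on average), each overlapping its neighbour. In 1 hr LTP Inhba kept the sixth place at 1.11 ± 0.251 RPKM, and in the 3 hr controls, at 2.01 ± 0.0379, it overlapped Inha. In 3 hr LTP Inhba reached 4.11 ± 0.414 RPKM, overlapping Acvr1c (3.82 ± 0.419) and above every library of Inha (2.75 ± 0.462) and Inhbb (2.58 ± 0.389). The order of the remaining genes differed between groups only among Inha and Inhbb and among Acvr2b, Fst and Fstl3. At 3 hr the summed inhibitors (Fst and Fstl3) were at 0.611 ± 0.0483 RPKM in the controls and 0.738 ± 0.0727 with LTP.

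**Figure D4:**
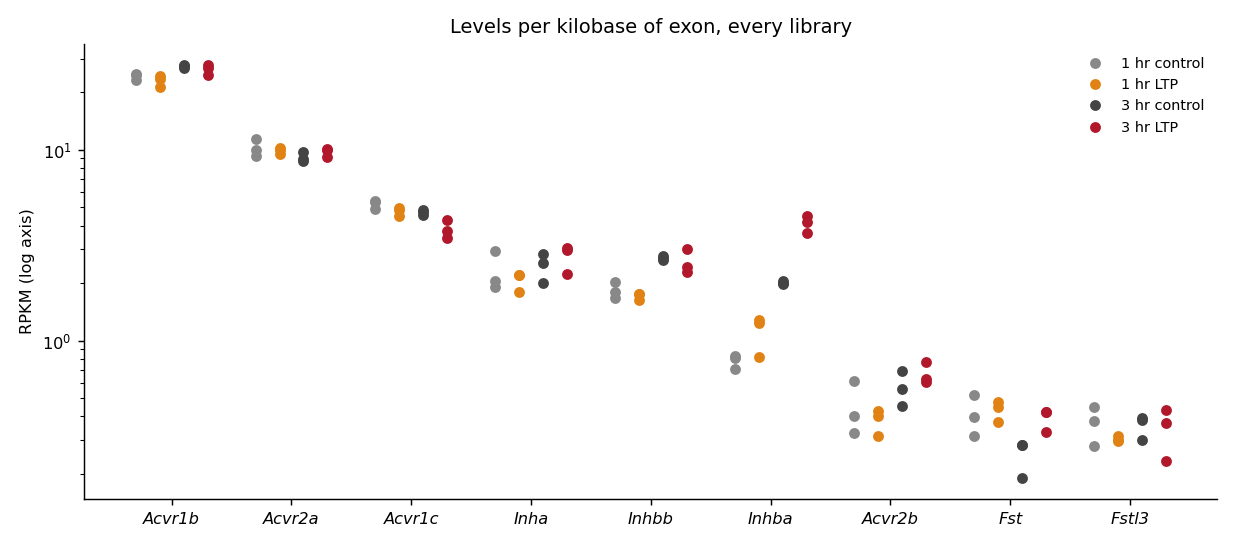
RPKM (y axis, log scale) of the 9 genes (x axis) in every library, coloured by group. Inhba moves from 0.782 RPKM on average in the 1 hr controls to 4.11 in 3 hr LTP, while Acvr1b stays the highest gene in all libraries.

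The rest of the TGF-beta family was examined in 5 lists of 83 genes, of which 67 were tested at each time point with LTP and 68 in the models of 4 groups. With LTP 1 gene was called higher at 1 hr, where 0.789% of all genes tested were called in either direction. At 3 hr 3 were called higher and 1 lower, against 5.07% and 1.53% of all genes. Of 18 other ligands tested, 0 were called at 1 hr and 1 at 3 hr, where Bmp3 fell by 0.50 on the log2 scale (SE 0.15, adjusted p = 0.0990, edgeR), from 3.74, 4.34 and 3.39 CPM in the controls to 2.43, 2.55 and 3.06 CPM. The list's median log2 fold change at 3 hr was 0.02, against -0.0025 over all genes. Of 13 other receptors and coreceptors 0 were called at either time. At an unadjusted p under 0.05 in edgeR were 2 and 3, against 1190 of 17736 and 3540 of 17508 genes. Of 14 other extracellular antagonists 1 was called, at 3 hr, when Fstl4, a relative of follistatin by sequence, rose 1.39-fold (log2 0.48, SE 0.13, adjusted p = 0.0762), from 17.7, 15.0 and 15.0 CPM to 25.0, 18.1 and 22.7 CPM. None of the 4 proprotein convertases, the enzymes that cut activin precursors and related proteins, was called with LTP.

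Among 18 SMADs and partners, Smad7 was called at 1 hr and Tgif1 and Magi2 at 3 hr. Smad7, the inhibitory SMAD that feeds back on activin and TGF-beta receptors, rose 1.53-fold at 1 hr (log2 0.61, SE 0.0933, adjusted p = 0.00368, edgeR quasi-likelihood test), from 21.6 and 23.2 CPM in the fitted controls to 33.9, 31.0 and 37.2 CPM with LTP. The library set aside was at 29.0 CPM, below all 3 LTP libraries. At 3 hr Smad7 had 30.6, 35.8 and 38.3 CPM in the controls and 43.1, 35.6 and 48.2 CPM with LTP, and the log2 fold change of 0.29 (SE 0.12) was not called (adjusted p = 0.236). Tgif1, a corepressor of SMADs, rose 1.40-fold at 3 hr (adjusted p = 0.0549), from 5.19, 6.01 and 5.74 CPM to 6.95, 7.78 and 8.79 CPM. At 1 hr Tgif1 had 4.88, 5.53 and 4.72 CPM in the controls and 7.75, 7.07 and 6.61 CPM with LTP, which did not overlap, and its log2 fold change of 0.58 (SE 0.14) was not called (adjusted p = 0.123, edgeR). Magi2, a scaffold protein that binds activin type II receptors, rose 1.23-fold at 3 hr (adjusted p = 0.0749). Among 7 known targets of SMAD2 and SMAD3, Smad7 at 1 hr was the only call of the 6 tested, and 0 of 7 were called at 3 hr. At 3 hr 2 of 7 (Tgfbi and Smad7) were at an unadjusted p under 0.05 in edgeR, against 3540 of 17508 genes. Log2 fold changes of targets at 3 hr were 0.33 (SE 0.22) for Ccn2, 0.29 (SE 0.10) for Tgfbi, 0.04 (SE 0.11) for Pmepa1, 0.01 (SE 0.0720) for Skil and -0.65 (SE 0.49) for Snai1. The median of the list was 0.29, against -0.0025 over all genes.

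**Figure D5:**
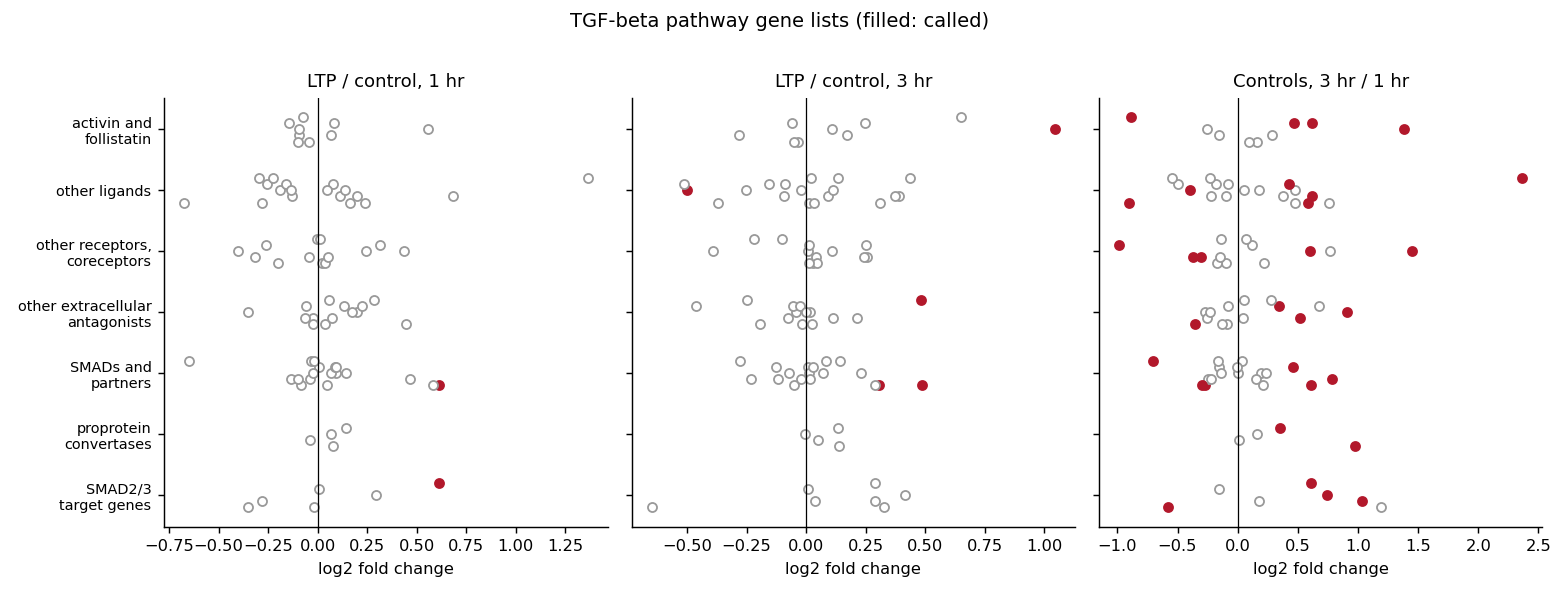
Log2 fold changes (x axis, range set per panel) of the tested genes of each list (rows) for LTP against control at 1 hr and 3 hr and for the controls at 3 hr against 1 hr. Each point is a gene, filled where called. With LTP few points are filled at either time, and the panel of the controls has filled points in each row.

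Between the controls of the 2 time points 14 of the 68 list genes were called higher and 9 lower at 3 hr, against 16.1% and 16.8% of all genes tested. Gdf15, a stress-induced ligand, was called higher on few counts (log2 2.37, SE 0.48, adjusted p = 0.00256, edgeR). The fitted 1 hr controls, replicates 1 and 3, were at 0.233 and 0.0711 CPM, the latter at its floor of 3 counts, and the 3 hr controls were at 0.714, 1.00 and 0.642 CPM. The library set aside was at 0.372 CPM, so the size of this difference rests on which 1 hr controls are used. Furin, a convertase that cleaves activin precursors, rose 1.96-fold (adjusted p = 0.00198), from 23.6, 30.9 and 23.1 CPM to 43.6, 47.5 and 49.2 CPM. Smad7 (1.53-fold), Smad5 (1.37-fold), Tgif2 (1.73-fold) and Pcsk7 (1.28-fold) were also called higher, and Smad2 (0.813-fold), Synj2bp (0.613-fold) and Magi2 (0.828-fold) lower. Of the ligands Bmp2, Bmp6 and Lefty1 were called higher and Mstn, which binds the same type II receptors as activin, and Tgfb2 lower. Of the receptors and coreceptors Tgfbr3l and Eng were called higher, and Bmpr2, Acvrl1 and the coreceptor Tdgf1 lower. Of the antagonists Chrd, Wfikkn1 and Nbl1 were called higher and Fstl5 lower. Among the targets Tgfbi (2.05-fold) and Smad7 were called higher and Ccn2 (0.671-fold) lower.

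The genes whose log2 CPM most resembled that of Inhba over the 11 fitted libraries, among 14195 genes, were Chka (Pearson r = 0.990), Sphk1 (0.985), Pttg1ip (0.977), Stk40 (0.974) and Tmbim1 (0.972). These values describe libraries that share animals and time points, and they rest on the difference between time points as well as on LTP. Sphk1, which encodes a sphingosine kinase, had log2 fold changes of 0.41 and 0.71 with LTP at 1 hr and 3 hr and of 1.23 between the controls. Chka, a choline kinase gene, had 0.19, 0.23 and 0.36 in the same comparisons.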

How the data were processed

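The authors' deposited tables hold raw counts per gene, 1 table per time point. Per the study's methods, libraries were stranded and ribosome-depleted, STAR was used for alignment to GRCm38 (mm10), and reads per gene were counted with Bioconductor packages. Use of strand is not stated. The submitters' processing notes name DESeq2. Of 41091 gene IDs, 40217 matched GENCODE M21, and 874 stayed in the tests without a symbol. No column of an unmapped sample was present.

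Counts were tested with edgeR 4.0.16 (R 4.3.3; filterByExpr, TMM, quasi-likelihood test, Benjamini-Hochberg over all genes), on each time point separately and without 1 hr control replicate 2, both as in the study's methods, and without an animal term, which those methods do not mention, so that 5 and 6 libraries were fitted at 1 hr and 3 hr. A call needed both a fold change over 1.2 and an adjusted p under 0.1. The interaction (no fold change minimum) and the control comparison came from 1 model of 11 libraries. The median log2 fold change of all genes lay within 0.03 of 0 in each fit. RPKM is TMM-scaled CPM per kilobase of merged exons. SE is that of a log2 fold change. Means and SDs of groups include all 3 libraries.

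The members and gene lists were chosen with earlier results of these data known. The text names the 9 members, called members of the lists, the 5 genes most correlated with Inhba (log2 CPM with a prior count of 0.5, mean of at least 1 CPM) and genes overlapping a member. The values of 1 gene of the target list are not reported here. Markers and other genes outside this rule were named after their values were seen.

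Alternatives were DESeq2 1.42.0, limma-voom (limma 3.58.1), other scalings and filters, each library left out, the set-aside library kept, and the animal as a replicate block. The labels give an animal's slices the same replicate number in LTP and control. Deviations of paired libraries from their group means correlated at -0.0024, -0.31 and 0.090 at 1 hr and 0.10, 0.027 and 0.35 at 3 hr. Replicates were not near identical (chi-square per degree of freedom 9.49 to 85.6). The test was run first on simulated counts of independent libraries with no animal effect, and no conclusion is drawn from that run. A floor of 3 counts was 0.0584 to 0.0792 CPM. Errors are the spread between libraries, which includes counting error. For Fstl3 and Fst, with as few as 26 and 40 counts a library, counting error was about as large as that spread or larger in some groups. So it was for other members in some groups, among them Inhba and Inhbb in the 3 hr controls. There the SDs were 1.88% and 2.01% of the means, on means of 615 and 550 counts, below counting error. Such SDs are no measure of precision, and no separate interval is given. Promoters came from the RefSeq windows on GRCm38.p6, and figures were drawn with matplotlib.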

Additional observations from a re-analysis of the deposited data

How the results depend on the processing

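Of 585 values of the 9 genes under alternatives (36 values in the main analysis), 535 kept their direction and their side of the threshold, 9 passed it only under the alternative, 4 lost it and 37 changed sign. The changes of sign fell on 14 values that had not been called, of at most 0.17 on the log2 scale, and the cause was not tested. Inhba with LTP at 3 hr stayed called in all 13 alternatives, from 0.97 to 1.12 with a library left out (highest adjusted p 0.0130, edgeR).

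The number of genes called with LTP at 1 hr (140) was 347 without a filter and 69 to 344 with a library left out (69 and 78 without control replicates 1 and 3, and 92 and 344 without LTP replicates 1 and 3). At 3 hr (1155) it was 228 to 2171 with a library left out (313, 228 and 415 without control replicates 1, 2 and 3, and 331 and 2171 without LTP replicates 1 and 2). The interaction (11) gave 80 in DESeq2, 102 without a filter, 7 with a replicate block and 1 hr control 2 kept, and 1 to 67 with a library left out. With the replicate block alone, the counts were 206 at 1 hr, 1662 at 3 hr and 13 in the interaction, and the pairing changed the call of no member but Acvr1c at 3 hr.

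With LTP at 1 hr, the sign changed with 1 hr control 2 kept for Inha (-0.16), Fst (0.089) and Acvr2b (-0.23), likewise with the replicate block added (-0.14, 0.10 and -0.19), and for Acvr1b with the replicate block (0.0088). With a library left out, the ranges were -0.25 to 0.12 for Fst, -0.31 to 0.13 for Fstl3, -0.084 to 0.0083 for Acvr1b and -0.063 to 0.24 for Acvr2b. At 3 hr they were -0.19 to 0.016 for Inhbb, -0.24 to 0.18 for Fstl3 and -0.075 to 0.024 for Acvr1b. In the interaction they were -0.052 to 0.16 for Inhbb, -0.036 to 0.23 for Inha, -0.21 to 0.26 for Fstl3, -0.055 to 0.066 for Acvr1b and -0.013 to 0.33 for Acvr2b. There the sign also changed for Fstl3 in limma-voom (-0.011) and for Acvr1b with total counts (-0.0056), with the strict filter (-0.012) and with the replicate block (-0.037). In the controls Fstl3 ran from -0.076 to 0.36 with a library left out and was -0.050 with 1 hr control 2 kept. Fst, Fstl3 and Acvr2b had the fewest counts of the 9 genes, and levels under the floor of 3 counts were not detectable at this depth.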
